A study of Mus musculus with 20 samples.

Results

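Scn4a, Scn4b, Clcn1, Cacng6, Aqp4, Hcn2 and Hcn4 are 7 genes that encode a sodium channel and its accessory subunit, a chloride channel, a calcium channel accessory subunit, a water channel and a pair of pacemaker channels. They were taken by symbol from expression tables of 20 mouse hearts, which list 23284 genes, and all 7 members were found and passed the filter on low values. The members were chosen with their levels in these same hearts known, so their differences between groups are given as descriptions, with standard errors and without p-values. Levels are FPKM (fragments per kilobase of a transcript and per set number of mapped fragments), a scale on which genes of different length can be compared, and differences are on the log2(FPKM + 0.5) scale.

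All mice were of strain C57BL/6 and all carried a floxed allele of Wnt5a, which encodes a secreted Wnt ligand; the genotype labels are Wnt5a floxed with Myh6-Cre/Esr 1 for the conditional knockout, called CKO here, and Wnt5a floxed for the controls. Myh6 is a heart muscle gene, and Cre joined to part of the oestrogen receptor acts once tamoxifen is given, so deletion is directed to heart muscle cells. The controls had no Cre transgene, so an effect of the transgene and one of the deletion cannot be told apart, and the labels name tamoxifen only for the unoperated mice. CKO hearts 21 and 24 and control hearts 22 and 23 were taken with no operation at the end of tamoxifen. In TAC, transverse aortic constriction, the aorta is narrowed by surgery and the left ventricle works against a raised pressure. It was compared with a sham operation at 2 and 4 weeks. The CKO hearts were 13 and 31 after TAC and 14 and 15 after sham at 2 weeks, and 3 and 41 after TAC and 4 and 8 after sham at 4 weeks. The control hearts were 11 and 32 after TAC and 12 and 16 after sham at 2 weeks, and 1 and 2 after TAC and 6 and 7 after sham at 4 weeks. Each of the 10 groups thus held 2 hearts, age and sex are not given here, and each library is labelled as a heart of its own.

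A muscle action potential starts when voltage-gated sodium channels open. Their alpha subunit forms the pore, and beta subunits set how fast it opens and closes and how it is held in the membrane. Chloride channels of the ClC family carry much of the resting conductance of skeletal muscle and keep it from firing repeatedly. HCN channels open on hyperpolarization and carry the pacemaker current of the sinoatrial node. They can be re-expressed in overloaded working myocardium, but over both times neither Hcn2 nor Hcn4 was higher after TAC in these hearts. Scn4a and Clcn1 are best known from skeletal muscle and Aqp4 from the glia of the brain.

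The genotype labels were checked first. Esr1, part of whose sequence is in the transgene, was 197 to 931 FPKM in CKO hearts and 0.101 to 0.465 FPKM in control hearts. At each stage and operation all CKO hearts had less Wnt5a than any control heart. It was 1.61 and 2.33 FPKM in CKO hearts against 2.56 and 2.82 FPKM in control hearts with no operation, 0.853 to 1.57 against 1.58 to 2.06 FPKM after TAC, and 1.76 to 2.14 against 2.55 to 4.11 FPKM after sham. Depth relative to the other libraries was lowest in heart 3, at 0.877, and highest in heart 2, at 1.21. The 10 heart muscle markers together stood at 33942 to 53500 FPKM in the operated hearts. The atrial gene Myl7 was at 10 FPKM or more in 5 hearts, which were hearts 14, 21 and 24 among the CKO hearts and hearts 11 and 16 among the controls.

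The promoters of the sodium, chloride and calcium channel genes are shown. Each of these genes, like Aqp4 and Hcn4, was lower in every control TAC heart than in every control sham heart. Each sequence is from RefSeq (build GRCm38.p6), 250 bases before to 50 bases after the RefSeq start, 5′ to 3′ on the strand of the gene. Of the 7 members, 6 were matched in that table, and Aqp4 is only named. Capitals mark matches, on either strand, to the E-box CANNTG, to the TEAD factor motif GGAATG, to the nuclear receptor half-site AGGTCA, and to the MEF2 motif. The Scn4a window is chr11:106349341-106349640 on the minus strand, that of Scn4b chr9:45138374-45138673 on the plus strand, that of Clcn1 chr6:42286435-42286734 on the plus strand and that of Cacng6 chr7:3424412-3424711 on the plus strand. The Scn4a and Cacng6 windows lie wholly inside the gene bounds given below, and that of Scn4b does so but for its first bases. The RefSeq start used for these genes is thus not the outer end of the annotated gene.
Scn4a: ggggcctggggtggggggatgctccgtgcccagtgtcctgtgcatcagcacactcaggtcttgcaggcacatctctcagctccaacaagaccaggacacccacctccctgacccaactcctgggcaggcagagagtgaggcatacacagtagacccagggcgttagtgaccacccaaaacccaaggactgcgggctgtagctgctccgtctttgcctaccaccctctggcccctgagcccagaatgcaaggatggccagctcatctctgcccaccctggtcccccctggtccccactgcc
Scn4b: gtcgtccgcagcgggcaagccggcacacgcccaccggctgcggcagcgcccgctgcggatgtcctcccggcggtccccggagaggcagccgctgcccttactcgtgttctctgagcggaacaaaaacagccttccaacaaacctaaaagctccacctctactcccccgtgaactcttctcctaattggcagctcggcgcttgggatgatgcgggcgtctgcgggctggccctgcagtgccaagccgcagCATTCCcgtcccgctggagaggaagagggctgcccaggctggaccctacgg
Clcn1: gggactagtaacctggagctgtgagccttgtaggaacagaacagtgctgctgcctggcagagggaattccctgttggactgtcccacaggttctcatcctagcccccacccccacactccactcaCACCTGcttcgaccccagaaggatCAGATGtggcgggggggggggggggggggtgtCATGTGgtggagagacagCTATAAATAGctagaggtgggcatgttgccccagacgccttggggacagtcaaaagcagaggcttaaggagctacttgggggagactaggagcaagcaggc
Cacng6: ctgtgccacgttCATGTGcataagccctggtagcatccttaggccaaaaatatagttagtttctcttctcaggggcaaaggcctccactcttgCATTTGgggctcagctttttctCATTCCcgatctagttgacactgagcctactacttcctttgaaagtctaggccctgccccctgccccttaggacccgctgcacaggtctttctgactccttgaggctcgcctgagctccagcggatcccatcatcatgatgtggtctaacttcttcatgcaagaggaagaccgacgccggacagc
Clcn1 held 3 E-boxes and 1 MEF2 motif, Cacng6 held 2 E-boxes and 1 TEAD motif, Scn4b held 1 TEAD motif, and these letters were not found in the Scn4a window. Of the 2 windows not printed, Hcn2 held 1 E-box and 2 half-sites and Hcn4 held no match. Among all 32851 promoter windows in the table, 72.3% held an E-box, 14.7% the TEAD motif, 16.3% the half-site and 3.19% the MEF2 motif. No motif searched was shared by all 4 printed windows, and a match describes letters, not a bound site.

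Scn4a (mm10 chromosome 11, 106318592 to 106353288, minus strand) encodes NaV1.4, the pore-forming sodium channel subunit of skeletal muscle. At 2 weeks it was 2.35 and 2.25 FPKM in CKO TAC hearts, against 4.89 and 4.97 FPKM in CKO sham hearts. Its level at 4 weeks was 4.80 and 5.96 FPKM in CKO TAC hearts, against 3.87 and 4.52 FPKM in CKO sham hearts. The CKO TAC hearts were thus below their sham hearts at 2 weeks and above them at 4 weeks. In controls it was 1.34 and 1.39 FPKM in TAC hearts at 2 weeks, against 4.33 and 6.02 FPKM in sham hearts. At 4 weeks it was 2.68 and 1.99 FPKM in control TAC hearts, against 7.15 and 5.79 FPKM in control sham hearts. Every control TAC heart lay below every control sham heart. The log2 difference of TAC from sham was -0.96 ± 0.20 at 2 weeks and 0.32 ± 0.20 at 4 weeks in CKO hearts, and -1.59 ± 0.20 and -1.30 ± 0.20 in control hearts (SE of the model). Between the 2 times, CKO TAC hearts differed by 1.06 ± 0.20 and control TAC hearts by 0.60 ± 0.20 (4 minus 2 weeks). The hearts with no operation held 5.11 and 4.59 FPKM in CKO and 5.30 and 3.44 FPKM in control mice, and heart 23, at 3.44 FPKM, was below every sham heart.

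Scn4b (chromosome 9, 45138395 to 45154152, plus strand) encodes the beta-4 subunit, which binds sodium channel alpha subunits and promotes resurgent current in neurons. It was the most abundant member in sham hearts of either genotype. In CKO hearts at 2 weeks it was 8.40 and 5.81 FPKM after TAC, against 22.0 and 17.0 FPKM after sham. In CKO hearts at 4 weeks it was 13.3 and 16.8 FPKM after TAC, against 26.9 and 21.2 FPKM after sham. The CKO TAC hearts at 4 weeks stood between their sham hearts and the TAC hearts of 2 weeks, with no overlap with either. In control hearts at 2 weeks it was 6.75 and 2.89 FPKM after TAC, against 19.3 and 17.6 FPKM after sham. In control hearts at 4 weeks it was 5.53 and 8.71 FPKM after TAC, against 22.1 and 21.1 FPKM after sham. TAC and sham hearts did not overlap in either genotype. The log2 difference over both times was -1.03 ± 0.22 in CKO and -1.75 ± 0.22 in control hearts. The control value at 2 weeks depended on the heart and was -1.93 ± 0.31 with both, -2.48 without heart 11 and -1.39 without heart 32.

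**Figure D1:**
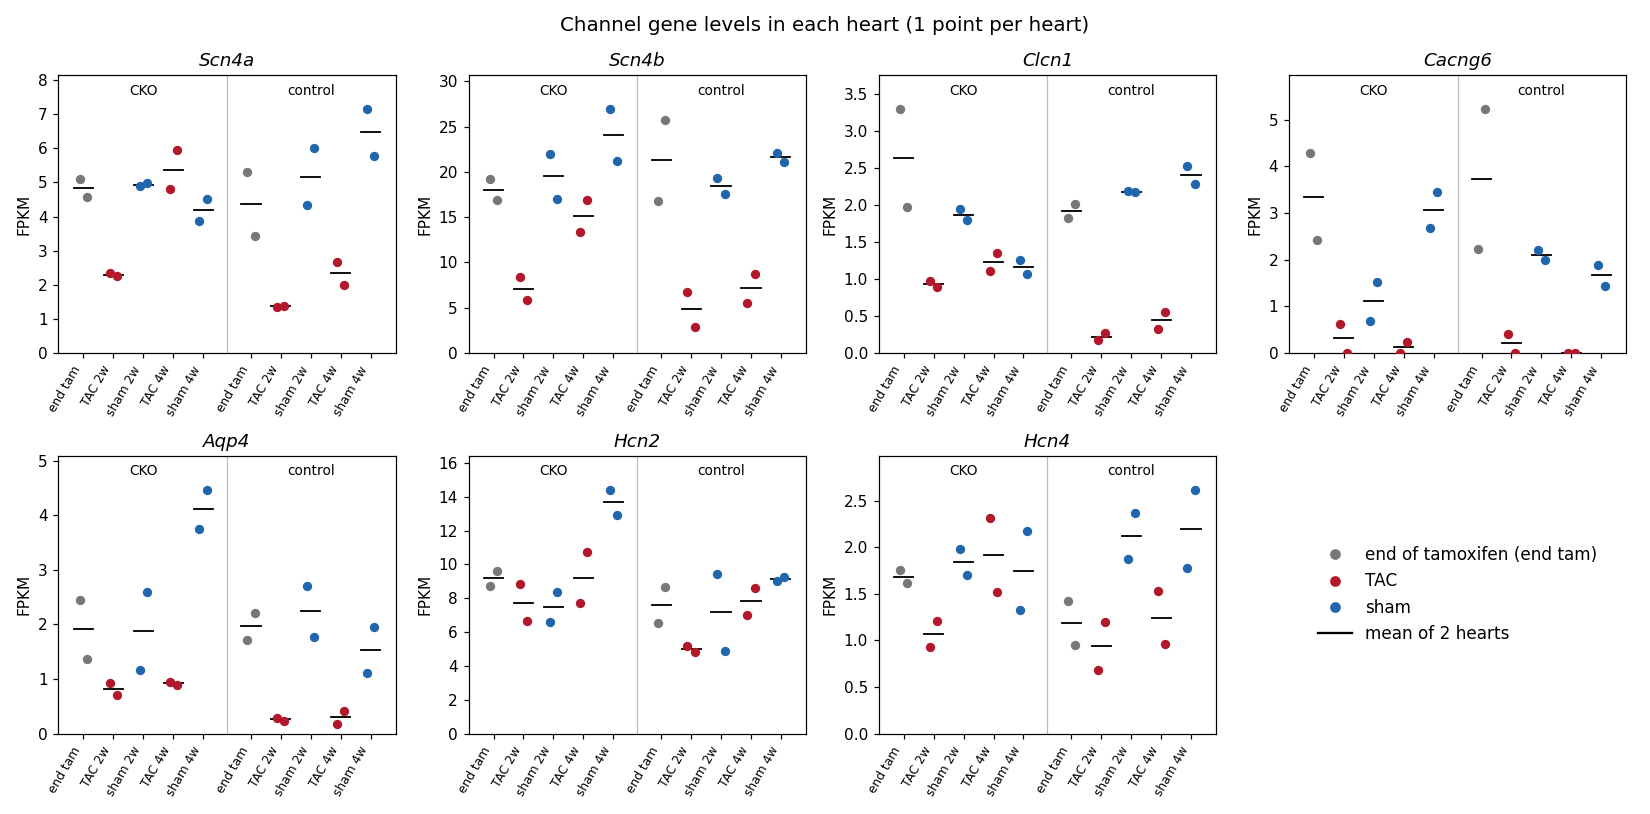
FPKM of each of the 7 genes (vertical axes, from 0) in each heart, with 1 point per heart and a line at the mean of 2 hearts, CKO left and control right, at the end of tamoxifen (end tam) and after TAC or sham at 2 and 4 weeks (2w, 4w). Scn4a, Scn4b, Clcn1, Cacng6 and Aqp4 lay lower in every control TAC heart than in every control sham heart, while Scn4a, Clcn1 and Hcn4 of CKO TAC hearts at 4 weeks lay among or above the CKO sham hearts.

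Clcn1 (chromosome 6, 42286685 to 42315756, plus strand) encodes ClC-1, the main chloride channel of skeletal muscle fibres. At 2 weeks CKO hearts held 0.966 and 0.887 FPKM after TAC, against 1.94 and 1.79 FPKM after sham. At 4 weeks CKO hearts held 1.11 and 1.34 FPKM after TAC, against 1.26 and 1.07 FPKM after sham. The CKO hearts thus overlapped at 4 weeks, where the sham hearts themselves were below those of 2 weeks. At 2 weeks control hearts held 0.175 and 0.266 FPKM after TAC, against 2.19 and 2.17 FPKM after sham. At 4 weeks control hearts held 0.328 and 0.550 FPKM after TAC, against 2.53 and 2.27 FPKM after sham. The mean of CKO TAC hearts was 71.2% of that of CKO sham hearts, and the mean of control TAC hearts 14.4% of that of control sham hearts. The log2 difference over both times was -0.34 ± 0.14 in CKO and -1.77 ± 0.14 in control hearts. The low control values rest on few fragments, 37 in the 4 TAC hearts against 234 in the 4 sham hearts. That makes a rate of TAC over sham of 0.146, with a 95% interval of 0.101 to 0.208 that covers counting error only. In CKO hearts 111 fragments after TAC stood against 147 after sham, a rate of 0.705 (0.546 to 0.908). Clcn1 overlaps Fam131b, which lies on the minus strand and held 0.205 to 0.756 FPKM in the operated hearts. No source used here says whether counting used strand, so fragments of the overlap cannot be told apart.

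Cacng6 (chromosome 7, 3424195 to 3435667, plus strand) encodes a gamma subunit of voltage-gated calcium channels. It was listed at 0.623 and 0 FPKM in CKO TAC hearts at 2 weeks, against 0.688 and 1.52 FPKM in CKO sham hearts. At 4 weeks it was listed at 0 and 0.236 FPKM in CKO TAC hearts, against 2.67 and 3.44 FPKM in CKO sham hearts. No CKO TAC heart reached the lowest CKO sham heart in FPKM, but the nearest, TAC heart 13 and sham heart 14, both rest on 3 fragments. In controls at 2 weeks it was listed at 0.407 and 0 FPKM after TAC, against 2.2 and 1.99 FPKM after sham. In controls at 4 weeks it was listed at 0 in both TAC hearts, against 1.89 and 1.44 FPKM in sham hearts. Of the 20 hearts, 5 were listed at 0, all of them after TAC. A listed 0 need not mean that no fragment was found, since 47 of 3414 genes with a mean of 20 FPKM or more were also listed at 0 in at least 1 heart. Taken as counts, 4 fragments in the CKO TAC hearts stood against 35 in the CKO sham hearts, a rate of 0.107 (95% interval 0.0275 to 0.298), and 2 in the control TAC hearts against 33 in the control sham hearts, a rate of 0.0561 (0.00652 to 0.219). The fitted log2 difference over both times was -1.80 ± 0.31 in CKO and -2.02 ± 0.31 in control hearts, and both depend on the 0.5 FPKM added. With 0.1 FPKM added they were -3.08 and -3.71, and with 1 FPKM they were -1.28 and -1.39.

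**Figure D2:**
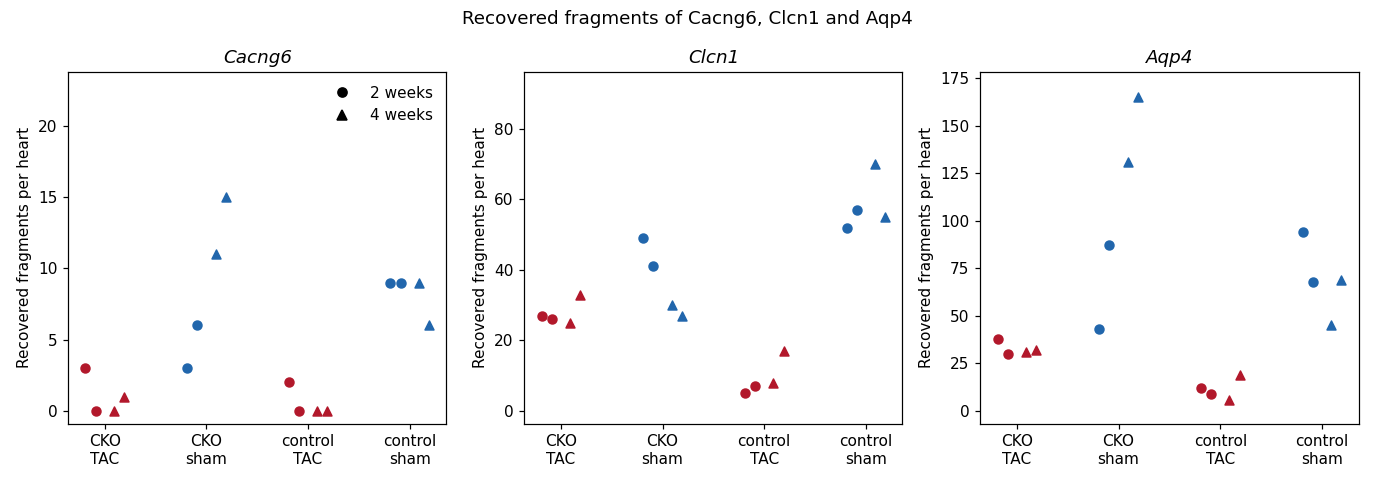
Fragments per heart (vertical axes, from 0) recovered from the FPKM of Cacng6, Clcn1 and Aqp4 in the operated hearts, with 1 point per heart and circles for 2 and triangles for 4 weeks. Cacng6 rests on at most 3 fragments in a TAC heart, Clcn1 of control TAC hearts on 5 to 17 and Aqp4 of control TAC hearts on 6 to 19.

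Aqp4 (chromosome 18, 15389496 to 15410982, minus strand) encodes a water channel. In CKO hearts at 2 weeks it was 0.931 and 0.701 FPKM after TAC, against 1.16 and 2.60 FPKM after sham. In CKO hearts at 4 weeks it was 0.943 and 0.893 FPKM after TAC, against 3.76 and 4.47 FPKM after sham. The CKO TAC hearts of both times were alike in level, and the larger distance at 4 weeks came with higher sham hearts. In control hearts at 2 weeks it was 0.288 and 0.234 FPKM after TAC, against 2.71 and 1.77 FPKM after sham. In control hearts at 4 weeks it was 0.169 and 0.421 FPKM after TAC, against 1.11 and 1.95 FPKM after sham. No TAC heart of either genotype reached the lowest sham heart of its genotype. The log2 difference over both times was -1.25 ± 0.22 in CKO and -1.58 ± 0.22 in control hearts. At 2 weeks the CKO value of -0.79 ± 0.32 was -1.24 without heart 14 and -0.34 without heart 15. The antisense gene annotated over Aqp4 was not analysed here.

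Hcn2 and Hcn4 encode pacemaker channels, of which Hcn4 is the main form of the sinoatrial node and Hcn2 is found in ventricle and brain. Hcn2 (chromosome 10, 79716634 to 79736108, plus strand) was 8.84 and 6.63 FPKM in CKO TAC hearts at 2 weeks, against 6.62 and 8.39 FPKM in CKO sham hearts. Hcn2 at 4 weeks was 7.69 and 10.7 FPKM in CKO TAC hearts, against 14.4 and 12.9 FPKM in CKO sham hearts. The 2 CKO sham hearts of 4 weeks were the highest of the 20 hearts. In controls Hcn2 was 5.17 and 4.80 FPKM after TAC at 2 weeks, against 9.45 and 4.88 FPKM after sham. At 4 weeks it was 7.01 and 8.63 FPKM in control TAC hearts, against 8.996 and 9.24 FPKM in control sham hearts. Over both times TAC and sham hearts overlapped in each genotype, and the log2 difference was -0.26 ± 0.17 in CKO and -0.32 ± 0.17 in control hearts. The control value at 2 weeks, -0.42 ± 0.25, was 0.03 without heart 12 and -0.86 without heart 16. The sham hearts of 4 weeks lay above those of 2 weeks in CKO mice and overlapped them in control mice.

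Hcn4 (chromosome 9, 58823412 to 58863175, plus strand) was 0.932 and 1.21 FPKM in CKO TAC hearts at 2 weeks, against 1.98 and 1.70 FPKM in CKO sham hearts. By 4 weeks it was 2.31 and 1.51 FPKM in CKO TAC hearts, against 1.32 and 2.17 FPKM in CKO sham hearts. The CKO groups were apart at 2 weeks and overlapped at 4 weeks, as for Clcn1. In controls Hcn4 was 0.684 and 1.2 FPKM after TAC at 2 weeks, against 1.88 and 2.37 FPKM after sham. At 4 weeks it was 1.53 and 0.962 FPKM in control TAC hearts, against 1.78 and 2.61 FPKM in control sham hearts. All control TAC hearts lay below all control sham hearts. The log2 difference over both times was -0.24 ± 0.19 in CKO and -0.76 ± 0.19 in control hearts. By genotype and time the TAC differences ran from -0.88 ± 0.27 in control hearts at 2 weeks to 0.11 ± 0.27 in CKO hearts at 4 weeks.

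**Figure D3:**
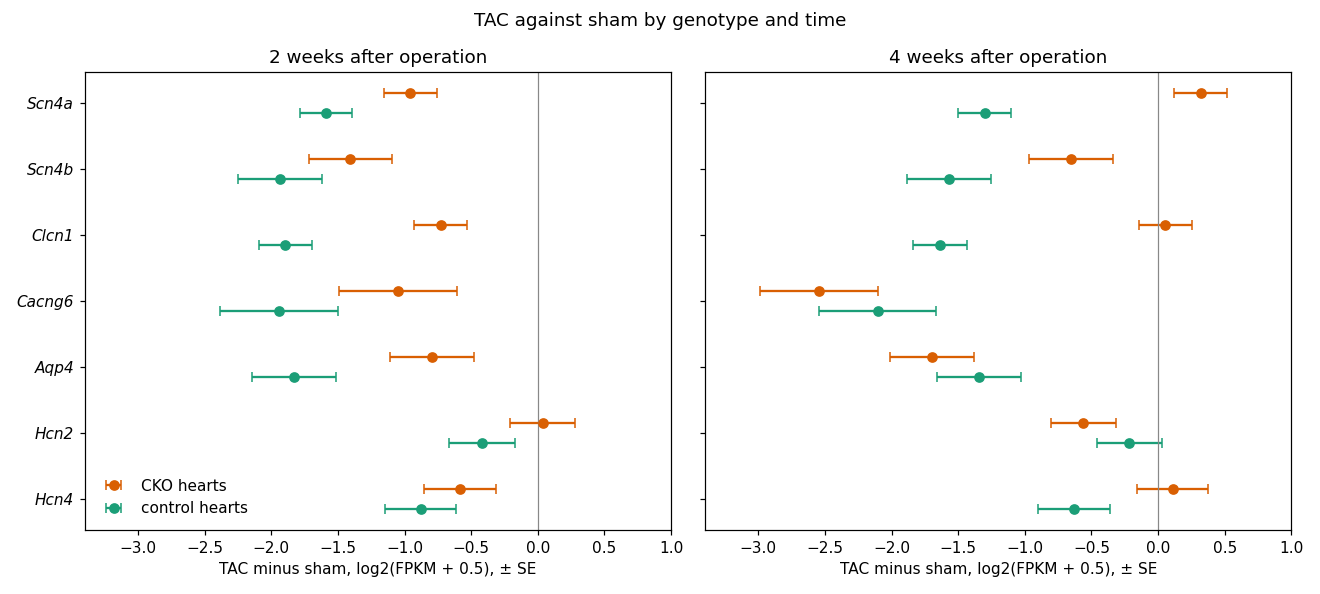
Log2 difference of TAC from sham (horizontal axis, log2(FPKM + 0.5), with bars of 1 SE of the model) for each of the 7 genes at 2 weeks (left) and 4 weeks (right), CKO hearts above control hearts in each pair. In control hearts the 5 genes from Scn4a to Aqp4 lay between -1.94 and -1.59 at 2 weeks, and in CKO hearts at 4 weeks Scn4a, Clcn1 and Hcn4 lay at 0.32, 0.05 and 0.11.

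Across the 7 members, 6 passed limma's test as lower in control TAC than in control sham hearts, all but Hcn2, where 16.1% of all 12589 genes tested did (limma, Benjamini-Hochberg adjusted p under 0.05). In CKO hearts 3 passed as lower, Scn4b, Cacng6 and Aqp4, where 4.89% of all genes did. By FPKM, the same 6 and the same 3 genes were those whose 4 TAC hearts all lay below their 4 sham hearts. That held for 12.2% of all genes in control and 4.05% in CKO hearts, and Cacng6 in CKO hearts included a tie at 3 fragments. These contrasts are among those by which the genes were chosen, so nothing is read from the counts. The median log2 difference over the members was -0.34 in CKO and -1.58 in control hearts, beside 0.01 and -0.00 over all genes tested. By time, 3 members passed as lower at 2 weeks and 2 at 4 weeks in CKO hearts, where 9.21% and 0.111% of all genes did. The 3 at 2 weeks were Scn4a, Scn4b and Clcn1, and the 2 at 4 weeks were Cacng6 and Aqp4. In control hearts 6 passed as lower at 2 weeks and 5 at 4 weeks, where 12.8% and 6.37% of all genes did, Hcn4 being the gene that passed at 2 weeks and not at 4.

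CKO and control hearts were then set side by side after TAC. Over both times the log2 difference, CKO minus control, was positive for all 7 members, with 0.82 ± 0.14 for Scn4a, 0.83 ± 0.22 for Scn4b, 0.94 ± 0.14 for Clcn1, 0.82 ± 0.22 for Aqp4, 0.39 ± 0.17 for Hcn2, 0.30 ± 0.19 for Hcn4 and 0.22 ± 0.31 for Cacng6. Scn4a and Clcn1 passed limma's test as higher, where 1.19% of all genes did. This contrast too was known when the genes were chosen, so nothing is read from the calls. With 0.1 FPKM added in place of 0.5, Aqp4 passed too and 3 members did, with 1.51 for Clcn1 and 1.39 for Aqp4, and with 1 FPKM added these were 0.65 and 0.55. Every CKO TAC heart lay above every control TAC heart for Clcn1 and Aqp4, which held for 2.1% of all genes. By time, Scn4a stood at 0.59 ± 0.20 at 2 weeks and 1.06 ± 0.20 at 4 weeks and passed only at 4 weeks. Clcn1 stood at 0.99 ± 0.20 at 2 weeks and 0.89 ± 0.20 at 4 weeks and passed at neither time alone. The share of all genes that passed at each time is not given here, so the calls by time are not compared. In sham hearts the difference was -0.31 ± 0.14 for Scn4a, 0.10 ± 0.22 for Scn4b, -0.49 ± 0.14 for Clcn1, -0.01 ± 0.31 for Cacng6, 0.48 ± 0.22 for Aqp4, 0.34 ± 0.17 for Hcn2 and -0.22 ± 0.19 for Hcn4. Clcn1 was thus lower in all 4 CKO sham hearts than in the 4 control sham hearts, an order found for 0.913% of all genes, and higher in the CKO TAC hearts. For Scn4b, Aqp4 and Hcn2 the sham and the TAC differences had the same sign.

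The difference of the TAC response itself, CKO minus control, was 1.13 ± 0.20 for Scn4a and 1.43 ± 0.20 for Clcn1, which both passed limma's test as higher, where 0.334% of all genes did, and these counts too use contrasts known when the genes were chosen. It was 0.72 ± 0.31 for Scn4b, 0.52 ± 0.27 for Hcn4, 0.34 ± 0.32 for Aqp4, 0.23 ± 0.44 for Cacng6 and 0.05 ± 0.25 for Hcn2. The members thus ran from Clcn1, with a far smaller TAC difference in CKO than in control hearts, to Hcn2, at 0.05. For the low genes the value depends on the FPKM added. With 0.1 FPKM added it was 2.11 for Clcn1, 0.84 for Aqp4 and 0.62 for Cacng6, and with 1 FPKM it was 1.05, 0.13 and 0.12. Without the 5 hearts with Myl7 at 10 FPKM or more the differences were 1.00 for Scn4a, 1.41 for Clcn1 and 1.12 for Scn4b, and Clcn1 was then the 1 member that passed.

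**Figure D4:**
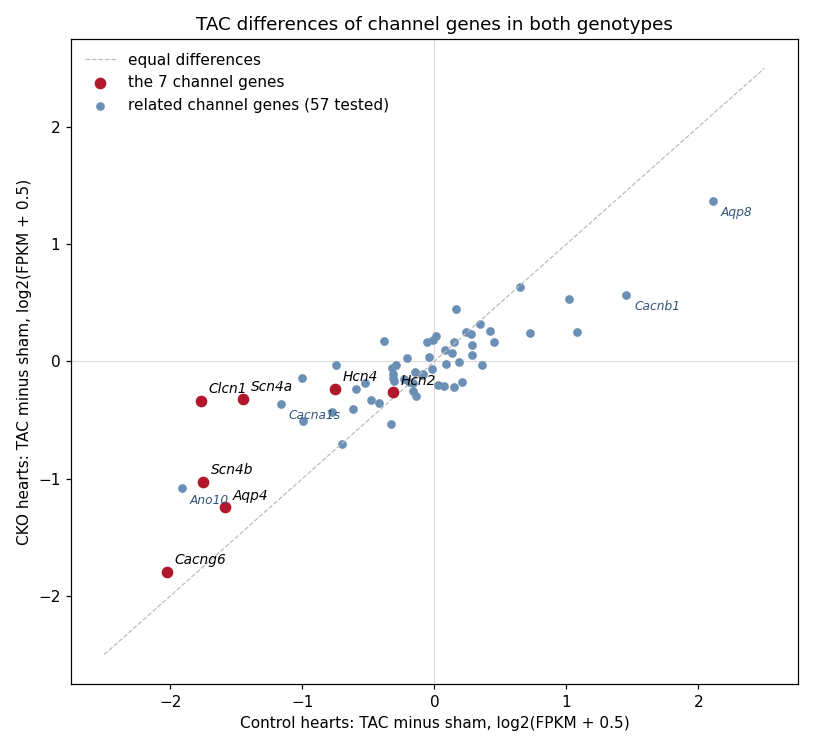
Log2 difference of TAC from sham, log2(FPKM + 0.5), over both times in control hearts (horizontal axis) and CKO hearts (vertical axis) for the 7 genes (red) and 57 related channel genes (blue), with a dashed line of equal differences. Hcn2 lay nearest to the line and Clcn1 and Scn4a furthest above it among the 7, and Aqp8 had the highest value in both genotypes.

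At the end of tamoxifen, before any operation, the log2 difference of CKO from control hearts ran from -0.21 ± 0.31 for Scn4b to 0.39 ± 0.27 for Hcn4. Clcn1 was 3.29 and 1.97 FPKM in CKO hearts, against 1.83 and 2.00 FPKM in control hearts, and both groups overlapped. Cacng6 was 4.29 and 2.42 FPKM in CKO hearts, against 2.22 and 5.22 FPKM in control hearts, and the highest of all 20 hearts were hearts 23, 21 and 8, the last a CKO sham heart of 4 weeks. Both CKO hearts of this stage had 10 FPKM or more of Myl7, so the comparison could not be made without them. In sham hearts at 2 weeks Cacng6 differed from the unoperated hearts by -0.94 ± 0.31, and the other 6 members by -0.21 to 0.37.

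The order of the 10 group means is a description, since with 2 hearts in a group a lack of overlap between neighbours is no test. For Scn4a it ran from 6.47 FPKM in control sham hearts at 4 weeks to 1.36 FPKM in control TAC hearts at 2 weeks, and CKO TAC hearts at 4 weeks came next to the top at 5.38 FPKM. Of 9 pairs of neighbours in that order 7 overlapped, and the CKO sham hearts of 4 weeks and the group next below them, and the control TAC hearts of 2 weeks and the group next above them, did not. For Clcn1 only 3 of 9 neighbouring pairs overlapped, and the 4 lowest groups, from CKO sham hearts at 4 weeks (1.16 FPKM) through CKO TAC hearts at 2 weeks (0.927 FPKM) and control TAC hearts at 4 weeks (0.439 FPKM) to control TAC hearts at 2 weeks (0.221 FPKM), did not overlap with the next. For Aqp4 and Cacng6 6 of 9 overlapped, for Scn4b and Hcn2 7, and for Hcn4 8. The control TAC hearts of 2 weeks were the lowest group for every member but Cacng6, whose lowest were the control TAC hearts of 4 weeks.

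Over 20 hearts Pearson's r between the 21 pairs of members was 0.17 to 0.86, a description of points that share groups and libraries, and between deviations from the group means it was -0.77 to 0.60. The lowest over 20 hearts was that of Hcn2 with Hcn4. The 10 pairs of Scn4a, Scn4b, Clcn1, Cacng6 and Aqp4 ran from 0.55 to 0.86, and from -0.40 to 0.60 between deviations. Among 10753 genes with a mean of 1 FPKM or more, the gene most like Scn4a over the 20 hearts was Lgr6 (Pearson's r 0.93, Spearman's rho 0.83), and the most like Scn4b was Tmem177 (0.96, 0.88). For Clcn1 it was Egflam (0.94, 0.95), followed by Camk2a and Hnmt at 0.93 and 0.92. For Cacng6 it was Gstt1 (0.92, 0.89), followed by the potassium channel gene Kcnd2 at 0.92. For Aqp4 it was Emilin2 (0.92, 0.91), for Hcn2 AI118078 (0.85, 0.86) and for Hcn4 Pcp4l1 (0.88, 0.89). Adcy6, an adenylyl cyclase gene of heart muscle, followed for Hcn4 at 0.87.

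Transcripts of other cells were examined beside these values. Of 12 skeletal muscle markers, Myh4 and Myf6 were listed at 0 in all 20 hearts and Myh1 and Myh2 reached at most 0.0655 and 0.0232 FPKM. Others were higher, with Tnni2 at 0.895 to 6.04 FPKM and Mylpf, Tnnt3 and Pvalb at up to 2.32, 1.77 and 1.64 FPKM. The 12 markers summed to 3.67 to 7.24 FPKM in CKO TAC and 3.26 to 8.99 FPKM in CKO sham hearts. In controls they summed to 2.89 to 8.74 FPKM in TAC and 3.23 to 5.16 FPKM in sham hearts, and the ranges overlapped. The 8 fibroblast markers summed to 510 to 1040 FPKM in CKO TAC and 623 to 682 FPKM in CKO sham hearts. In controls they summed to 824 to 1556 FPKM in TAC and 572 to 661 FPKM in sham hearts, with none at 0 in all hearts and no overlap in controls. The 10 heart muscle markers summed to 33942 to 47436 FPKM in CKO TAC, 44083 to 52487 in CKO sham, 36931 to 48916 in control TAC and 39116 to 53500 FPKM in control sham hearts. The part of these shifts in the channel gene differences was not tested, and in whole-heart RNA fewer cells of a type and less RNA per cell cannot be told apart. The 10 atrial markers summed to 24.4 to 37.8 FPKM in CKO TAC, 33.6 to 784 in CKO sham, 24.6 to 193 in control TAC and 37.3 to 96.8 FPKM in control sham hearts. Without the 5 hearts with high Myl7 the control TAC difference was -1.33 for Scn4a, -2.06 for Scn4b, -1.72 for Clcn1, -2.27 for Cacng6, -1.74 for Aqp4, -0.56 for Hcn2 and -0.56 for Hcn4, and Hcn2 passed in place of Hcn4. Of 8 conduction system markers Isl1 was listed at 0 in all hearts, and their sums overlapped between TAC and sham hearts in both genotypes. They were 44.1 to 60.4 FPKM in CKO TAC, 45.1 to 53.5 in CKO sham, 38.9 to 64.5 in control TAC and 41.9 to 50.2 FPKM in control sham hearts. The 10 neuronal and glial markers, none of them at 0 in all hearts, summed to 2.78 to 4.79 FPKM in CKO TAC, 3.75 to 7.05 in CKO sham, 1.98 to 4.18 in control TAC and 3.22 to 5.48 FPKM in control sham hearts, with medians of 3.27, 5.61, 2.64 and 3.74 FPKM in the same order. Of 8 macrophage markers the 7 in the tables summed to 390 to 848 FPKM in CKO TAC, 395 to 602 in CKO sham, 494 to 749 in control TAC and 311 to 611 FPKM in control sham hearts. The 8 endothelial markers summed to 2241 to 3948 FPKM in CKO TAC, 2319 to 3023 in CKO sham, 2397 to 2979 in control TAC and 2143 to 2625 FPKM in control sham hearts. The part of these sums in the channel gene differences was not tested either.

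Other channel genes and channel partners were counted on a list chosen by what the genes encode, with the 7 members left out. Of 100 such genes 57 were tested. In control hearts 10 rose and 13 fell after TAC (limma adjusted p under 0.05), against 31.4% of all genes in either direction, with a median log2 difference of -0.05. In CKO hearts 1 rose and 6 fell, against 9.11% of all genes, with a median of -0.06. Without heart 8, 15 or 31 only 3 passed in CKO hearts. Among 9 calcium channel subunit genes 2 rose and 5 fell in control hearts, and 2 fell in CKO hearts. Among 17 chloride channel genes 2 rose and 4 fell in control hearts, and 1 fell in CKO hearts. Fewer were called among 11 sodium channel partners, where 1 rose and 2 fell in control hearts and 2 fell in CKO hearts. Of 9 genes of water channels and their anchor, 2 rose and 1 fell in control hearts, and 1 rose in CKO hearts. Of 8 pacemaker partners, 2 rose and 1 fell in control hearts, and 1 fell in CKO hearts. The sodium channel sublist is not reported here.

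The gene of the list that fell most was Ano10, which encodes a member of the anoctamin family of chloride channels and scramblases. It was 13.8 to 23.0 FPKM in CKO TAC and 30.0 to 47.1 FPKM in CKO sham hearts, and 8.28 to 13.1 FPKM in control TAC and 36.8 to 49.8 FPKM in control sham hearts. The log2 difference was -1.08 ± 0.10 in CKO hearts (limma adjusted p = 0.000175) and -1.91 ± 0.10 in control hearts (limma adjusted p = 9.5e-08). CKO TAC hearts exceeded control TAC hearts by 0.64 ± 0.10 (limma adjusted p = 0.0041), and the TAC response differed by 0.83 ± 0.15 (limma adjusted p = 0.0134, where 1.25% of all genes passed in either direction). With only the groups compared in the fit, the difference in TAC hearts did not pass (limma adjusted p = 0.0553). Ano10 was the only gene of the list to pass between CKO and control TAC hearts, against 3.45% of all genes, while 2 passed without heart 6, 7, 12, 16 or 32 and 4 without heart 11.

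Further genes of the list passed limma's test (adjusted p under 0.05), with the log2 difference of TAC from sham given here. Cacna1s, the pore-forming calcium channel subunit of skeletal muscle, stood at -1.16 ± 0.17 in control hearts, and Cacnb1, a calcium channel beta subunit, at 1.45 ± 0.24. Fgf13, which encodes a modulator of sodium channels, fell at -0.43 ± 0.09 in CKO and -0.77 ± 0.09 in control hearts. Tbx5, a transcription factor of the atria and conduction system, fell in both genotypes, at -0.71 ± 0.13 in CKO and -0.70 ± 0.13 in control hearts. Aqp8, another water channel gene, rose by 1.37 ± 0.30 in CKO and 2.11 ± 0.30 in control hearts, the direction opposite to that of Aqp4. It was 3.93 to 7.44 FPKM in CKO TAC and 0.827 to 1.97 FPKM in CKO sham hearts, and 3.28 to 12.7 FPKM in control TAC and 0.795 to 2.17 FPKM in control sham hearts. Cacnb2, a beta subunit of the cardiac calcium channel, fell in both genotypes, at -0.53 ± 0.09 in CKO and -0.33 ± 0.09 in control hearts. So did Cacna1c, its main pore-forming subunit, at -0.36 ± 0.09 in CKO and -0.42 ± 0.09 in control hearts. The CKO calls of Fgf13 and Aqp8 were lost without heart 8, 15 or 31, and that of Cacna1c without any one of hearts 3, 4, 8, 14, 15, 31 and 41. Ank2, which encodes the membrane anchor ankyrin-B, fell by 0.33 ± 0.09 in CKO and by 0.48 ± 0.09 in control hearts. Its CKO call was close to the threshold (limma adjusted p = 0.0405). There the TAC hearts, at 16.6 to 26.5 FPKM, overlapped the sham hearts, at 23.9 to 29.8 FPKM. In control hearts Clcn3 fell by 0.53 ± 0.10, and Sntb1, Pkp2 and Kctd3 rose by 1.02 ± 0.26, 0.45 ± 0.09 and 0.42 ± 0.12. The call of Kctd3 was lost without heart 2, 7, 12 or 32. In sham hearts no gene of the list passed between CKO and control hearts, where 0.00794% of all genes did (limma adjusted p under 0.05). At an unadjusted limma p under 0.05 there were 2 of 57, and the share of all genes at that unadjusted threshold is not given here.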

How the data were processed

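Per the labels' protocols, total RNA of 20 hearts was extracted with the miRNeasy Mini kit and made into TruSeq Stranded mRNA libraries. Per the submitters' processing notes, TopHat2 2.1.1, Bowtie2 (version not given in the sources used here), Cuffdiff 2.2.1 and build mm10 were used. The deposited values are FPKM as the authors made them, 1 table of 23284 genes per heart, and library totals are not given in the sources used here.

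Genes with a mean of 0.5 FPKM or more, 12589 in number, were analysed as log2(FPKM + 0.5) in limma 3.58.1 (R 4.3.3) with a mean for each of 10 groups, a prior variance that follows the mean and 10 residual degrees of freedom. Comparisons over both times weight them equally. P-values were adjusted by Benjamini-Hochberg over all genes tested, with a threshold of 0.05, and measure the spread between hearts. Relative depth came from the steps between low values of 2197 genes, of which 96.7% of 21468 lay within 5% of a whole multiple. Fragments of the 7 genes were recovered as whole steps within 0.02 steps, on the premise that a step is 1 fragment. Their 95% intervals are exact (Clopper-Pearson on the share of fragments) and cover counting error only. Gene positions are from GENCODE M21.

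The 7 genes, the lists, the rules and the alternatives were chosen with earlier results of these data known. Named genes of the related list are up to 6 per direction and comparison with the largest difference, a mean of 1 FPKM or more and, except for differences of responses, no overlap at either time, and some genes of that list are counted but not reported here by name. The 3 genes most like each member were ranked by Pearson's r, with symbols that begin with Gm, AK or BC and a number or end in Rik passed over, and a part of them is named. The fit and the recovery of fragments were tested on simulated data. Other settings tried were 0.1 or 1 FPKM in place of 0.5 as the pseudocount, a low-value filter of 3 FPKM or none, scaling by median ratios or by quantiles, a prior with no trend, a fit of the compared groups alone, each heart left out, and the 5 hearts at or above 10 FPKM of Myl7 left out.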

Additional observations from a re-analysis of the deposited data

Results flagged for a closer look

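The 4 hearts of each arm, TAC or sham of a genotype over both times, were examined for a heart far from the other 3, in 28 arms of the 7 genes. The rule picks out about 1 in 20 groups of 4 like hearts, but each arm joins both times, so that rate need not hold here. Of the 28 arms 2 were picked out. Cacng6 was listed at 0.407 FPKM in control TAC heart 11, which rests on 2 fragments, and at 0 in the other 3 control TAC hearts. With those 3 at 0, any level above 0 in heart 11 would have been picked out. Hcn2 was 4.88 FPKM in control sham heart 16 and 8.996 to 9.45 FPKM in the other 3 control sham hearts. Heart 16 is also among the 5 hearts in which Myl7 reached 10 FPKM. Without it the Hcn2 log2 difference of control TAC from sham hearts at 2 weeks was -0.86, against -0.42 ± 0.25 with it.

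Among the related channel genes the TAC response of Ano10 differed between CKO and control hearts, by a test of the difference itself. The difference, CKO minus control, was 0.83 ± 0.15 (limma adjusted p = 0.0134). Ano10 was lower in all TAC than in all sham hearts of both genotypes.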

How the results depend on the processing

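Of 1630 values of member differences under the alternatives, 1551 moved by less than 1 SD between hearts, 79 moved further and 0 reversed a called direction. A change of the filter, the prior or the groups in the fit leaves these differences unchanged by construction, so part of the 1551 was fixed in advance. Those that moved came mostly from the added 0.1 or 1 FPKM in Clcn1, Cacng6 and Aqp4, or from leaving out a heart at a single time. With a filter of 3 FPKM only 3 of the 7 genes were tested, by construction, and those called numbered 1 for TAC in CKO hearts, 2 for TAC in control hearts, 1 for CKO against control in TAC hearts and 1 for the difference of the TAC response. With the 5 hearts in which Myl7 reached 10 FPKM left out, 1 member and 1 related gene passed for the difference of the TAC response, with fewer hearts in the fit. Of the related genes, 2 passed between CKO and control TAC hearts with quantile normalization and 0 with only the groups compared, where 57 were tested, and the cause was not tested. The unadjusted count for that comparison with all groups in the fit was 15. Leaving out 1 heart at a time gave 2 to 3 members for TAC in CKO hearts, 6 to 7 in control hearts, 2 to 3 for CKO against control in TAC hearts and 2 for the difference of the TAC response. It gave 3 to 8 related genes for TAC in CKO hearts, 18 to 24 in control hearts, 1 to 4 for CKO against control in TAC hearts and 1 to 2 for the difference. For CKO against control in sham hearts it gave 0 members and 0 related genes throughout. A group left with 1 heart was assumed to vary like the others. The share of all genes that passed under each of these settings is not given here. The members were chosen with these contrasts known, so nothing is read from how their counts held or changed. No paired analysis was made, since the sources used here give no pairing of hearts between groups. Groups of 2 hearts, fewer than 20 fragments of Clcn1 and Aqp4 in each control TAC heart, and the unknown library totals limit the precision of every value given here.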
